A study of Danio rerio with 10 samples.

Results

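RNA libraries of cebra mutant zebrafish and of their heterozygous siblings, made from whole embryos at 28 hpf (hours after fertilisation), held 68 of 36351 gene models that stood apart in both libraries of replicate number 4, 1 per genotype. In number 4, 16 of these stood higher and 52 lower than in the comparison libraries. The models were selected on CPM values. A model was taken when the mean of the 4 heterozygous libraries was at least 1 and below 500 CPM (the read count scaled to a common library total) and when the departure went the same way in both genotypes. For a higher model, the smaller of cebra 4 and het 4 was at least 1.5-fold above the largest of cebra 1, cebra 3, het 1, het 2 and het 3. For a lower model, the larger of cebra 4 and het 4 was at least 1.5-fold below the smallest of those 5 libraries. The level range held 19476 models, so that the higher models are 0.0822%, the lower models 0.267% and both together 0.349% of it. These CPM values chose the models, and the departure of number 4 is therefore described without a test.

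The study compared mutants of a line called cebra with their heterozygous siblings, 4 RNA libraries each, all from whole embryos. The labels do not name the mutated gene, so no targeted gene could be checked, and they do not say whether a library is 1 embryo or a pool, nor what libraries of equal number share. Both groups come from the same line, and the siblings carry 1 copy of the mutation, so no library is labelled wild type. Genomic DNA of 1 cebra and 1 heterozygous sample was not analysed here.

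The series title concerns cilia and the Reissner fiber. Motile cilia beat in the brain ventricles and the central canal and move the cerebrospinal fluid. The Reissner fiber is a thread of secreted glycoprotein in that fluid, and in zebrafish it is known for its part in keeping the body axis straight. At this age the embryo has a beating heart, a segmented trunk and differentiating eyes and brain, and RNA from the whole animal mixes all of these tissues. In such RNA, fewer cells of a type and less RNA per cell cannot be told apart.

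The table names models by LL-type identifiers and pairs none of them with a symbol or a position. None of the 36351 identifiers (0) matched the symbol tables at hand. No role can therefore be given to any model, no marker list could be read out, and models other than the 4 identified below are described by their length. Library totals ran from 50634030 to 71877787 counts, with cebra 4 at 69204646 and het 4 at 58506594. Cebra 2, which the rule does not use, stood apart from all other libraries. Its TMM scaling factor was 0.775, against 1.02 to 1.06 elsewhere, and 35.7% of the models in the level range lay at least 1.5-fold below the smallest of the 5 comparison libraries in it.

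The higher models were led by LL0000012370, 3062 bases long. Its level was 237.9 CPM in cebra 4 and 196.6 CPM in het 4, against 67.5 and 66.8 CPM in cebra 1 and 3 and 41.8, 57.7 and 54.2 CPM in het 1, 2 and 3. The smaller value of number 4 was thus 2.91-fold above the largest of the 5 comparison libraries. Relative to the other libraries of its own genotype (mean of cebra 1 and 3, or of het 1, 2 and 3), it was 3.54-fold higher in cebra 4 and 3.84-fold higher in het 4. Cebra 2 read 90.9 CPM, above the 5 comparison libraries and far below both libraries numbered 4.

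LL0000024517, of 4371 bases, read 412.9 CPM in cebra 4 and 353.1 CPM in het 4, against 153.9 and 143.1 CPM in cebra 1 and 3 and 124.9, 191.8 and 132.7 CPM in het 1, 2 and 3. This was 2.78-fold above the other cebra libraries and 2.36-fold above the other heterozygous libraries. Cebra 2 lay between number 4 and the comparison libraries for this model, at 276.6 CPM. Over all 16 higher models the median departure was 1.99-fold in cebra 4 (range 1.64 to 3.54) and 2.17-fold in het 4 (range 1.67 to 4.34). The widest disagreement in size between the genotypes was in a model of 2093 bases, with 15.7 CPM in cebra 4 and 29.6 CPM in het 4, against 9.80 and 3.94 CPM in cebra 1 and 3 and 7.05, 9.24 and 4.19 CPM in het 1, 2 and 3. For that model the comparison libraries themselves spread 2.49-fold, and both libraries numbered 3 were the lowest of their genotype.

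**Figure D1:**
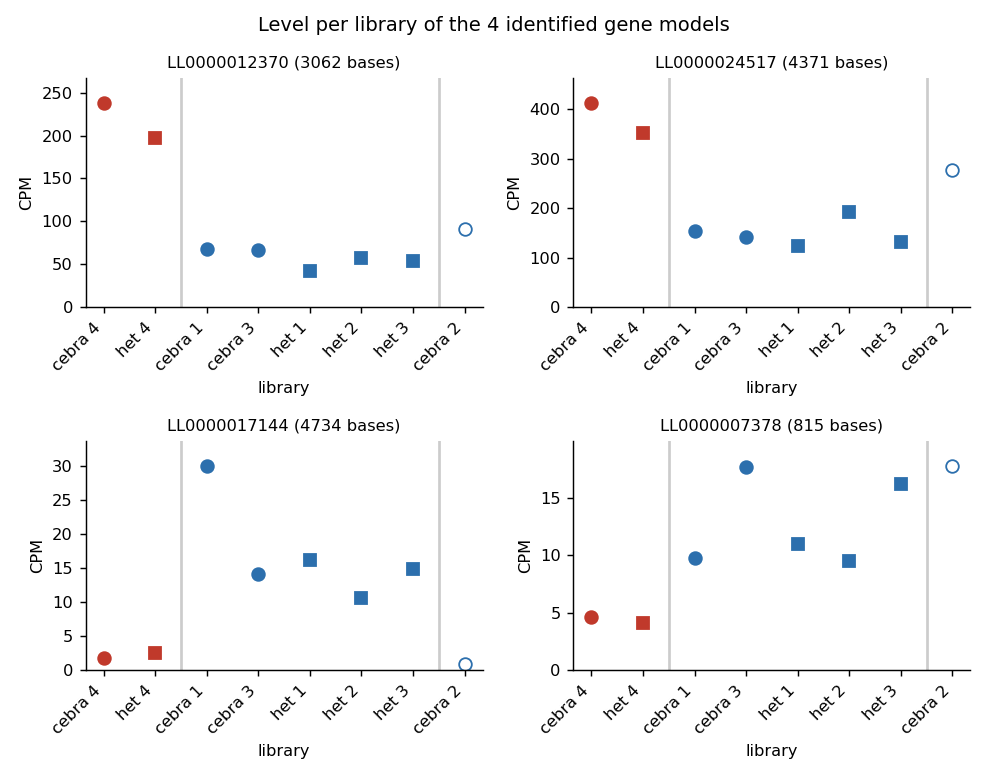
Level in CPM (linear axis from 0) of the 4 gene models named by identifier, 1 panel each and 1 point per library. Circles are cebra and squares are het, red marks the libraries numbered 4, blue the 5 comparison libraries and the open circle cebra 2. LL0000012370 and LL0000024517 are highest in both red points, while LL0000017144 and LL0000007378 are below all 5 comparison libraries in both.

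Among the lower models, 4 had a gap of at least 4-fold to the comparison libraries, and number 4 ranged from 0 counts in 1 of them to 118 and 149 counts in another. A model of 1556 bases had 0 counts in cebra 4 and 0 in het 4, against 120 and 17 counts in cebra 1 and 3 and 90, 137 and 83 counts in het 1, 2 and 3. A count of 0 allows a level of up to 0.0434 CPM in cebra 4 and 0.0513 CPM in het 4 (3 counts per library, counting error only). Against those limits the model was at least 30.6-fold lower in cebra 4 and at least 30.2-fold lower in het 4 than the mean of the other libraries of the genotype. The cebra mean rests on cebra 1, and against cebra 3 alone the bound is 6.44-fold. The bound on the gap to the 5 comparison libraries is 5.44-fold.

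A model of 7499 bases had 17 counts in cebra 4 and 12 in het 4, against 758 and 245 counts in cebra 1 and 3 and 556, 321 and 443 counts in het 1, 2 and 3. That is 0.246 CPM in cebra 4 and 0.205 CPM in het 4, or 38.7-fold and 31.5-fold below the other libraries of the genotype. Its gap of 16.4-fold was the widest of the models with a count in number 4. The third, of 4387 bases, read 0.405 CPM in cebra 4 and 0.137 CPM in het 4, against 2.07 and 2.35 CPM in cebra 1 and 3 and 3.14, 1.91 and 2.66 CPM in het 1, 2 and 3. Here the departure differed in size between the genotypes, at 5.46-fold in cebra 4 (28 counts) and 18.8-fold in het 4 (8 counts).

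The last of these is LL0000017144, of 4734 bases. It read 1.71 CPM in cebra 4 and 2.55 CPM in het 4, against 30.1 and 14.1 CPM in cebra 1 and 3 and 16.3, 10.6 and 14.8 CPM in het 1, 2 and 3. Cebra 2 was lower still, at 0.853 CPM, which is 17.3-fold below the median of the comparison libraries. For LL0000017144, and for the models of 1556 and 7499 bases, cebra 1 was the highest of all 8 libraries, and it exceeded het 1 by 1.85-fold, 1.89-fold and 1.94-fold.

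Most of the lower models departed less. Over all 52 the median departure was 2.36-fold in cebra 4 (range 1.62 to 38.7) and 2.41-fold in het 4 (range 1.67 to 31.5). The lower model of highest CPM, 8732 bases long, had 106.3 CPM in cebra 4 and 124.3 CPM in het 4, against 355.3 and 213.2 CPM in cebra 1 and 3 and 265.6, 187.7 and 213.7 CPM in het 1, 2 and 3. A model of 1491 bases had the tightest comparison libraries of those described here, which differed by 1.06-fold among themselves. It read 54.2 CPM in cebra 4 and 46.2 CPM in het 4, against 90.6 and 93.8 CPM in cebra 1 and 3 and 94.7, 89.0 and 93.2 CPM in het 1, 2 and 3.

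**Figure D2:**
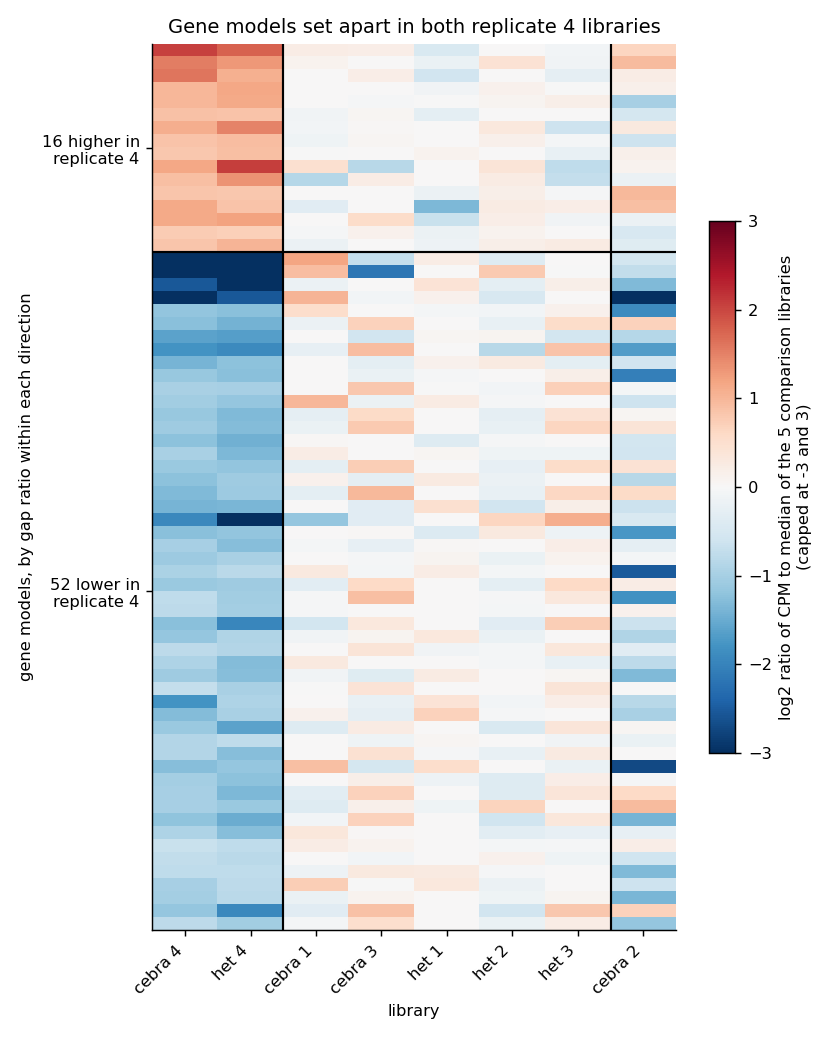
Log2 ratio of CPM to the median of the 5 comparison libraries for the 68 models (rows, 16 higher above and 52 lower below the line, ordered by gap) in the 8 libraries (columns), capped at -3 and 3, with a count of 0 drawn as 3 counts. The columns of cebra 4 and het 4 share a colour in every row by the rule, the middle 5 columns are the comparison libraries, and cebra 2 at the right takes either side.

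The rule takes models that depart to the same side in cebra 4 and het 4, so the likeness of these libraries in them is a description. The median fold between cebra 4 and het 4, in either direction, was 1.14 over the higher models and 1.17 over the lower models, beside 1.09 over all models in the level range. Between cebra 1 and het 1 it was 1.14 and 1.22, beside 1.09 over the level range. Between cebra 3 and het 3 it was 1.15 and 1.11, beside 1.10. Between cebra 2 and het 2 it was 1.45 and 1.63, beside 1.48 over the level range. The departure was the larger one in cebra for 4 of 16 higher models and for 26 of 52 lower models, beside 9412 of 19476 in the level range. With 1 library of this number per genotype that difference was not tested.

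**Figure D3:**
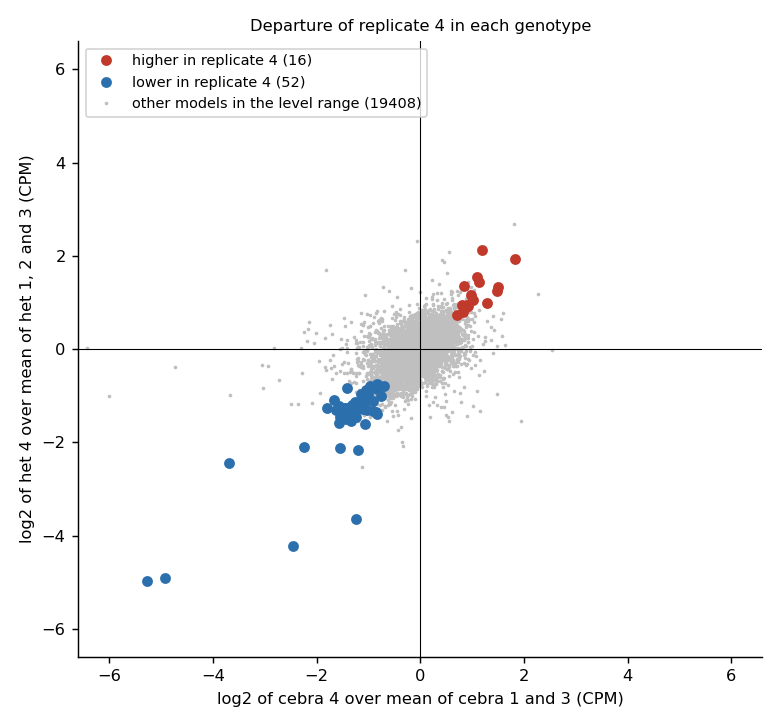
Log2 ratio of cebra 4 to the mean of cebra 1 and 3 (horizontal) against log2 ratio of het 4 to the mean of het 1, 2 and 3 (vertical), 1 point per model in the level range. The 16 higher models (red) lie at the upper right and the 52 lower models (blue) at the lower left, which the rule fixes, and the other 19408 models are grey.

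The threshold has no natural break at 1.5-fold. Just inside it, a higher model of 3226 bases read 135.5 CPM in cebra 4 and 154.7 CPM in het 4, against at most 90.3 CPM in the comparison libraries. Just outside, a model of 1487 bases read 1.99 CPM in cebra 4 and 1.91 CPM in het 4, against at most 1.30 CPM, a gap of 1.47. Gaps of 1.5 to 1.6 were held by 7 higher and 16 lower models, and gaps of 1.4 to 1.5 by 11 and 31 models that were not taken. None (0) of the 259 models at or above 500 CPM met the criterion on the gap. The choice of comparison libraries set the counts too. Without het 2 the rule took 29 higher and 84 lower models, and with number 4 represented by het 4 alone or by cebra 4 alone it took 73 and 72 higher and 219 and 202 lower models. With cebra 2 added to the comparison libraries, 13 higher and 28 lower models were left.

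The rule did not use the length of the models. The lower models were of shorter median length (2864.5 bases, quartiles 1373.75 and 4748) and the higher models of about the median length (3391.5 bases, quartiles 2549.5 and 4948.25) of all models in the level range (3522 bases, quartiles 2089 and 5611.25). The median of the lower models is lowered by 7 models of neighbouring identifiers, described below, which are 815 to 1654 bases long. Short length is therefore not read as a trait of the other lower models. Per kilobase, the median heterozygous level was 3.22 CPM in the higher and 1.75 CPM in the lower models, beside 3.87 CPM over the level range. Low levels were common among these models: 28 of 52 with lower values in number 4 (53.9%) averaged under 5 CPM over het 1 to 4, as did 7 of 16 with higher values (43.8%), beside 28.2% of the level range. Both level measures include het 4, which the rule required to be high in the higher and low in the lower models. The difference in level between these sets is therefore in part set by the choice. The lowest count of any of the 68 models in a comparison library was 17, and all 68 passed the filter on low counts, which the level floor of the rule all but fixes.

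Of the lower models, 18 of 52 (34.6%) had an identifier within 20 numbers of that of another lower model. Of the other 19424 models in the level range, 4.44% had a lower model within that distance. They formed 6 runs, 1 of 7 models, 1 of 3 and 4 of 2. Of the higher models, LL0000012370 and the model of 3226 bases formed the only 1 such run, within 8 numbers. The run of 7 spans 19 consecutive identifiers, of which 16 were in the level range, so that 43.8% of these were taken, beside 0.267% of the level range. Both ends of the span are such models themselves, which raises the share. The files do not say whether identifier order follows genome order, and reads of near-identical copies could be shared within such a run. The run was noticed in the list and is described without a test.

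LL0000007378, of 815 bases, has the widest gap of that run. It read 4.61 CPM in cebra 4 and 4.09 CPM in het 4, against 9.74 and 17.7 CPM in cebra 1 and 3 and 10.99, 9.49 and 16.2 CPM in het 1, 2 and 3. Both libraries numbered 3 were the highest of the comparison libraries, at 1.82-fold of number 1 in cebra and 1.47-fold in het. Cebra 2 read 17.8 CPM, close to cebra 3. Relative to the mean of the comparison libraries of its genotype, the model was 2.98-fold lower in cebra 4 and 2.99-fold lower in het 4.

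The models of the run were alike in profile. In all 16 models of the run that were in the level range, both values of number 4 lay below all 5 comparison libraries, with a smallest gap of 1.22. The rule fixes this for 7 of them, and it holds for 11.8% of the level range. In units of each model's own mean in het 1, 2 and 3, the 16 models lay at 0.351 to 0.608 in cebra 4 and 0.229 to 0.520 in het 4. They lay at 0.687 to 0.883 in cebra 1 and 1.22 to 1.75 in cebra 3, and at 0.857 to 0.984 in het 1, 0.587 to 0.817 in het 2 and 1.22 to 1.54 in het 3. Number 3 was above number 1 in both genotypes for 16 of 16, and cebra 2 lay at 1.05 to 1.47. Over the level range the order of numbers 3 and 1 was alike in both genotypes, in either direction, for 60.3%. The share with number 3 above is not given, and the run was picked from the list of lower models. The 7 models taken by the rule were 815 to 1654 bases long, and the 9 others, with gaps of 1.22 to 1.49, were 642 to 2816 bases long.

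**Figure D4:**
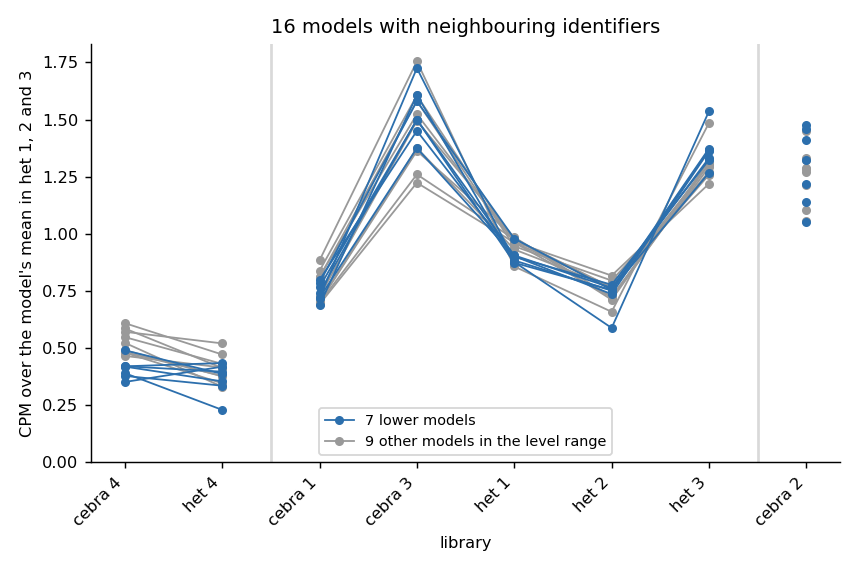
CPM of each of 16 models with neighbouring identifiers, divided by the model's mean in het 1, 2 and 3, by library. Blue lines are the 7 lower models taken by the rule and grey lines the 9 others in the level range. All 16 are lowest in cebra 4 and het 4, at 0.229 to 0.608, and high in cebra 3 and het 3, at 1.22 to 1.75.

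The rule does not set the comparison libraries against each other, but their largest or smallest value helped to choose the models. The ratio of number 3 to number 1, read in cebra and in het from separate libraries, is therefore not independent of the choice. In the lower models, 43 of 52 (82.7%) had number 3 on the same side of number 1 in both genotypes, beside 60.3% of all models in the level range. Pearson's r between the log2 ratios of cebra and het was 0.68 over the 52 models and 0.30 over the 19476 of the level range. Without the run of 7 the values were 36 of 45 (80.0%) and 0.60. These are descriptions across models that share the same 4 libraries and their depth, and models are not replicates. The lower models also vary more among the comparison libraries than the level range does. No share from models of like spread is given, so the difference from the level range is not read as a result.

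Number 3 was at least 1.5-fold above number 1 in both genotypes for 8 of the 52 lower models (15.4%), beside 0.211% of the level range, and 4 of the 8 belong to the run of 7. The opposite order past that fold was seen for 1 lower model (1.92%), beside 0.195% of the level range. The largest of them by level, a model of 8797 bases, read 27.9 CPM in cebra 4 and 25.7 CPM in het 4. Its other values were 183.7 CPM in cebra 3 and 176.9 CPM in het 3, 82.3 CPM in cebra 1 and 97.3 CPM in het 1, and 30.7 CPM in cebra 2 and 54.9 CPM in het 2. The ratio of cebra to het for this model was 1.09 in number 4, 1.04 in number 3, 0.846 in number 1 and 0.558 in number 2. In the higher models the order of numbers 3 and 1 was alike in 8 of 16, with r = 0.25. The comparison libraries of the lower models also spread more widely, by a median of 1.64-fold between the largest and smallest, against 1.44-fold for the higher models and 1.23-fold over the level range.

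**Figure D5:**
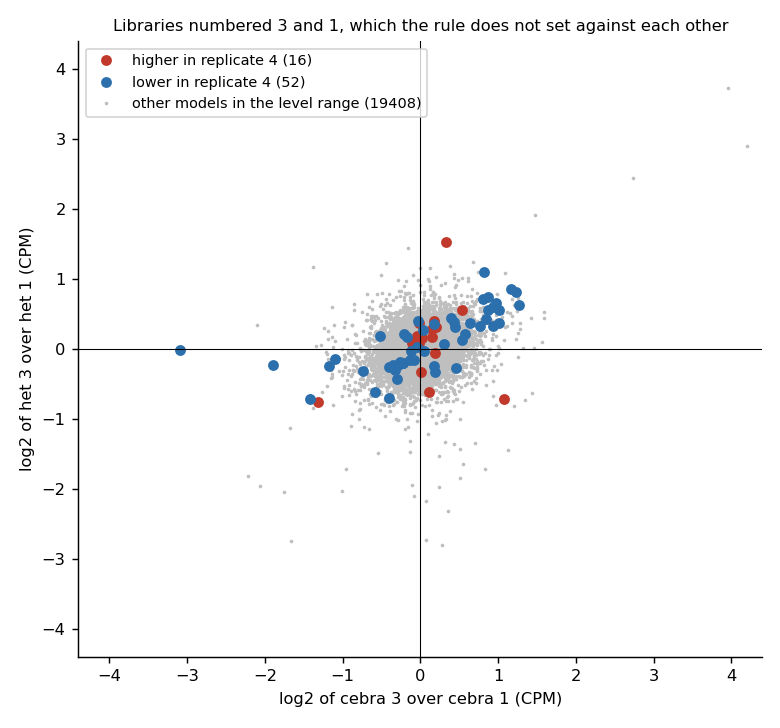
Log2 ratio of cebra 3 to cebra 1 (horizontal) against log2 ratio of het 3 to het 1 (vertical) for each model in the level range, with the 16 higher models in red, the 52 lower models in blue and the other 19408 in grey. Of the blue points, 43 of 52 have both ratios on the same side of 0, and of the red points 8 of 16.

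Cebra 2 took no part in the choice of the models. It lay above all 5 comparison libraries for 7 of the 16 higher models, within their range for 4 and below all of them for 5. Over the level range it lay above for 20.6% and below for 63.7%. Past the 1.5-fold threshold it lay above for 2 higher models (level range 3.76%) and below for 1 (level range 35.7%). Of the 52 lower models it lay below all 5 for 31 (59.6%), past the threshold for 17 (32.7%), and above all 5 for 3. For the lower models the shares below, on CPM of column totals, are near those of the level range. The share above all 5 was smaller, at 5.77% beside 20.6%. Cebra 2 lay within their range for 18 of 52 lower models, beside 3062 of 19476. The comparison libraries of the lower models spread more widely (median 1.64-fold, beside 1.23-fold), so the difference in these shares is not read as a result. With TMM scaling, which raises cebra 2 relative to the other libraries, it lay below all 5 for 22 lower models and above all 5 for 9 higher models. No share of the level range is given at that scaling. The median of cebra 2 over the median of the comparison libraries was 1.09-fold in the higher and 0.666-fold in the lower models, beside 0.737-fold over the level range.

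Whether the models differ between the genotypes was read from the comparison of cebra with heterozygous embryos over all models. The rule is not neutral to this comparison. Both libraries numbered 4 must pass the same extreme of comparison libraries from both genotypes, so a model with a large genotype difference is less readily taken. The level range rests on the heterozygous libraries alone, and cebra 2 is not used. A low number of calls among the 68 is therefore in part set by the choice. With all 8 libraries, 0 of the 68 models passed an FDR of 0.05 in edgeR's quasi-likelihood test, where 0.0197% of the 25342 models tested were called (5 models). None of the 68 (0) had an unadjusted p under 0.05, where 3.80% of all tested models and 619 of the 19476 in the level range had. DESeq2 called 0 of the 68 as well, where it called 0.225% of 25334 models (57). The median log2 fold change was 0.02 in the higher and 0.05 in the lower models, beside 0.02 over all models tested and -0.0009 over the level range. Each model was chosen for 1 library that stands apart in each genotype, which widens the spread that this test uses. With the replicate number as a block, 0 of 25342 models were called, with 1012 at an unadjusted p under 0.05, and 0 of the 68, with 3. Without both libraries numbered 4, edgeR called 0 of the 68, with 2 at an unadjusted p under 0.05, and 0 of 25445 in all, with 664.

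LL0000012370 was higher in cebra within all 4 pairs of equal number, by 1.61-fold in number 1, 1.57-fold in number 2, 1.23-fold in number 3 and 1.21-fold in number 4. Its log2 fold change was 0.47 (SE 0.57, edgeR adjusted p 0.927) over all 8 libraries and 0.56 (SE 0.16, edgeR adjusted p 0.836) with the replicate block. In the pairs 1, 3 and 4 with the block, which leaves out number 2, it was 0.39 (SE 0.07, edgeR adjusted p 0.0181). It was the only 1 of the 68 models called in that comparison (1.47%), where 2.82% of 25447 models were called. An unadjusted p under 0.05 was held by 10 of the 68 (14.7%), beside 17.4% of all models tested and 3949 of the 19476 in the level range. With so few calls, these shares are read as no result about the 68 models. Leaving out only cebra 4 keeps het 4, which the rule chose as high, and the log2 fold change of LL0000012370 was then -0.06. Leaving out only het 4 gave 1.24. Without both libraries numbered 4 it was 0.71 (SE 0.27, edgeR adjusted p 0.916).

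The other identified models were not called in any of these fits. The log2 fold change over all 8 libraries was 0.41 (SE 0.44) for LL0000024517, 0.43 (SE 0.52) for LL0000007378 and 0.05 (SE 0.93) for LL0000017144, at edgeR adjusted p-values of 0.927, 0.927 and 0.992. For LL0000017144 the sign turned with the replicate block, to -0.63 (SE 0.63). In the pairs 1, 3 and 4 LL0000007378 differed by 0.004 (SE 0.09), and the 16 models of its run had a median of 0.01, with 0 called by edgeR and 0 at an unadjusted p under 0.05. These SEs rest on 4 libraries per genotype or, in the pairs 1, 3 and 4, on 3 pairs. A p that misses the threshold does not show that the genotypes are alike.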

How the data were processed

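RNA of 4 cebra and 4 heterozygous libraries was analysed, grouped and numbered by the sample titles. The authors deposited raw read counts per gene model with model lengths. Reads were aligned with Subread, per the file headers. Cutadapt, DESeq2 and the build GRCz11 appear, without roles, in the submitters' processing notes. The sources used here do not give the annotation, the strand setting or the handling of multi-mapping reads. Totals of 50634030 to 71877787 counts set the precision.

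CPM for the rule used column totals. A count of 0 was set to 3 counts in ratios only. The test was edgeR 4.0.16 in R 4.3.3 (filterByExpr, TMM, quasi-likelihood F test, cebra over het, two-sided, Benjamini-Hochberg over all models), tested on simulated data. The simulated libraries shared no variation by replicate number, so the simulation does not show how the test behaves under it. DESeq2 1.42.0, other scalings and filters, the replicate block and left-out libraries were alternatives. The SE is the size of the log2 fold change over the square root of F. P-values set the genotype difference against the spread between these libraries, which in the main test includes variation shared by libraries of equal number.

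Members, lists and tests were chosen with earlier results of these data known. The naming rule took, per direction, the 2 models of widest gap with a heterozygous mean of at least 5 CPM. The other models, described by length, were the 4 lower models of at least 4-fold gap, those of most reads, those at the threshold and some chosen after their values were seen. Across 25342 models, a library's deviations from its group mean were correlated with those of the library of equal number in the other group. The correlation was 0.205 for number 1, 0.142 for 2, 0.152 for 3 and 0.274 for 4. The main test nevertheless did not pair the libraries. Among the tests, only those alternatives that used the replicate block matched equal numbers. The labels do not say what libraries of equal number share. No library repeated another of its group (chi-square over degrees of freedom of 10.6 or more).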

Additional observations from a re-analysis of the deposited data

Results flagged for a closer look

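A search of 12 sets of 4 values for a single distant library, which chance marks in about 1 in 20 sets, gave 3 marks. LL0000012370 was marked in both genotypes, with cebra 4 at 237.9 CPM and het 4 at 196.6 CPM as the highest of 4, which repeats what the rule selected. The TMM factor of cebra 2, at 0.775, was the lowest of its group.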

How the results depend on the processing

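With TMM scaling the rule took 15 higher and 48 lower models, all of them among the 68, and with RLE scaling 15 and 49. A looser fold threshold took 100 and 184, a threshold of 2-fold 1 and 7, a floor of 5 CPM 9 and 24, and cebra 2 among the comparison libraries 13 and 28. Leaving out each library that the rule uses, 1 at a time, gave 20 to 73 higher and 52 to 219 lower models. The median departures moved by less than the spread between replicates under TMM.

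Over all models, the genotype comparison called 5. Library size alone gave 3, a 1 CPM filter 1, DESeq2 57, the replicate block 0, and the pairs 1, 3 and 4 with the replicate block 718. Leaving out each library gave 0 to 25. Added after seeing the data, leaving out number 4 gave 0 without and 0 with the replicate block (664 and 491 at an unadjusted p under 0.05), number 4 and cebra 2 left out gave 72, and DESeq2 with the block 35. Among the 68 models, the pairs 1, 3 and 4 gave 1 call and every other fit listed here 0, as did each fit without 1 library.

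The log2 fold change of LL0000017144 turned to -0.63 with the replicate block, -0.65 with the block without number 4 and -0.68 in DESeq2 with the block. It ranged from -1.01 to 0.42 when each library was left out. That of LL0000012370 ranged from -0.065 without cebra 4 to 1.24 without het 4, and was 0.71 without both. LL0000024517 was at -0.047 without number 4 and cebra 2. The cause of these shifts was not tested. Each of the 68 models had 17 or more counts in every comparison library, and 1 library of number 4 per genotype stands behind each departure.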
